A study of Mus musculus with 16 samples.

Results

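Sox1, Pax6, Hes5, Six3 and Six3os1 are genes of the neuroectoderm, the embryonic tissue that gives rise to the nervous system. Greb1l was grouped with them. The transcript levels of these 6 genes were followed in 16 bulk RNA sequencing libraries of mouse pluripotent cells. They are 6 of the 34042 genes in the count table, and 6 of the 18555 genes that passed a filter on low counts. They were selected because earlier results from these same libraries had shown them to differ between 2 lines of formative stem (FS) cells, so their levels in the FS lines are given as a description without a test. The FS cells, a state placed between naive embryonic stem cells and primed epiblast stem cells, were grown in A3XR medium. The line 5ar1 gave 3 libraries, from passages 10, 12 and 14, and the line 5ar3 gave 3 libraries, from passages 4, 5 and 12. Epiblast stem cells (EpiSCs) of the line AF32 in AF medium gave 3 libraries, from passages 13, 14 and 15. Those of the line AFX6 in AFX medium gave 3 libraries, from passages 5, 8 and 12. The 4 libraries of embryonic stem (ES) cells came from E14IV-C at passages 12, 13, 15 and 20, kept in 2iL medium. From what is known of the study, A stands for activin A, F for the growth factor FGF2, X for a tankyrase inhibitor that blocks Wnt signalling and R for an inverse agonist of retinoic acid receptors. In 2iL, inhibitors of MEK and GSK3 are combined with the cytokine LIF. The labels name no gene edit or transgene.

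Each condition outside FS was 1 line in 1 medium, so line and medium cannot be told apart there, and each library is a passage of its line. The p-values therefore measure only the spread between passages of a line, which may be technical. The libraries held between 22069338 and 33290250 counts. Levels are given as CPM, the count of a gene scaled to a common library size with TMM, which corrects for differences in RNA composition. A single count was worth between 0.0319 and 0.0691 CPM. The markers of the labelled states were present: Pou5f1, a core pluripotency factor, averaged 455 CPM or more in each line, and the naive factors Zfp42 and Tfcp2l1 averaged 329 and 1724 CPM in ES. Zfp42 averaged 0.121 CPM or less in every other line.

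When epiblast cells turn towards a neural fate they form the neural plate. Sox1, a transcription factor of the SOXB1 group, is among the first genes restricted to it, and Pax6 follows in neural progenitors, where it directs forebrain and eye development. Hes5 is a basic helix-loop-helix repressor that is switched on by Notch signalling and keeps progenitors from becoming neurons. Six3 marks the most anterior neural plate, where it restrains Wnt signalling and is needed for the forebrain and eyes, and Six3os1 is a long noncoding RNA made from the opposite strand beside it. Greb1l is the paralogue of the hormone receptor cofactor Greb1 and is known for its role in kidney and inner ear development.

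The genes lie on 5 chromosomes, and only Six3 and Six3os1 are neighbours. In mm10, with the gene models of GENCODE mouse release 21, Sox1 is at chr8:12395295-12400126 on the plus strand, Pax6 at chr2:105668900-105697364 on the plus strand and Hes5 at chr4:154960923-154962371 on the plus strand. Six3 is at chr17:85613608-85629302 on the plus strand, and Six3os1 is at chr17:85600651-85618398 on the minus strand. The bodies of Six3 and Six3os1 overlap, and 106 bases are exonic in both. The setting for strand in the counting is not given in the sources used here, so reads from those bases cannot be assigned to either gene with certainty. Hes5 shares 433 exonic bases, 31.8% of its length, with Gm20421 on the other strand, but Gm20421 averaged at most 0.0456 CPM in any line.

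The 250 bases before the RefSeq start sites (GRCm38.p6) of Hes5, Six3 and Six3os1 are shown because Hes5 is the Notch target of the group and because the Six3 pair, whose starts face away from each other, had nearly the same profile across the libraries. They run 5′ to 3′ on the strand of each gene, and capitals mark the matches to the motifs named after them. The Hes5 stretch is chr4:154960673-154960922, plus strand. The Six3 stretch is chr17:85620584-85620833, plus strand. The Six3os1 stretch is chr17:85618397-85618646, minus strand.
Hes5: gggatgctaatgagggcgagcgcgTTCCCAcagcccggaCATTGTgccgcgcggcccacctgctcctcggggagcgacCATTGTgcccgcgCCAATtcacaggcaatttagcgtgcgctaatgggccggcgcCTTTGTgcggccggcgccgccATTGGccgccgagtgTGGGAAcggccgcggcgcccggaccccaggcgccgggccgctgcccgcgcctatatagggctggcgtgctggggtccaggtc
Six3: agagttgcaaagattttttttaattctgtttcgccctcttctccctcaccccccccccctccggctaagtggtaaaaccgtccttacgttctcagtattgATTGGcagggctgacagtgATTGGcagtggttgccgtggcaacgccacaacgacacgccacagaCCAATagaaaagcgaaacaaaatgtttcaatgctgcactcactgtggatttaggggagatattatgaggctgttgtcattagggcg
Six3os1: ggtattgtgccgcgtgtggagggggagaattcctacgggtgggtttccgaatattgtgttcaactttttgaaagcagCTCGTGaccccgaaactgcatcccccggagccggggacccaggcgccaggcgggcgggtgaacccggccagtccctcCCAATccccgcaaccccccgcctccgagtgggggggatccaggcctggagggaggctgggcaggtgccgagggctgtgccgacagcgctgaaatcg
Motifs were searched on both strands in the 300-base windows from 250 bases before to 50 bases after each start, and the share of all 32851 mouse windows of that length with a match is given for each. Hes5 held 2 matches to TGGGAA, the core bound by the Notch effector RBPJ, at 226 and 82 bases before the start, and 25.6% of windows held at least 1. It also held 2 matches to the SOX core ACAATG (12.6% of windows), 1 to ACAAAG, a core shared by SOX and TCF factors (18.7%), and 2 to the CCAAT box (37.4%). Six3 held 3 CCAAT boxes, at 150, 131 and 86 bases before the start, and no match to the other motifs. Six3os1 held 1 CCAAT box and 1 match to CACNAG, the N-box bound by HES proteins (42.5%). Of the other members, the Sox1 window held 1 CCAAT box before the start, and after it 1 TGGGAA and 1 match to the POU octamer ATGCAAAT, which 1.74% of windows held. No motif overlapped another in the stretches shown. A match describes letters and not binding.

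Sox1 was highest in 5ar3. It read 1.19, 1.31 and 1.05 CPM in 5ar1 at passages 10, 12 and 14, against 18.5 CPM in 5ar3 at passage 12, 27.3 at passage 4 and 22.9 at passage 5. The 2 FS lines did not overlap. In EpiSC_AF it read 10.5, 5.36 and 3.57 CPM at passages 13, 14 and 15, in EpiSC_AFX 2.09, 0.571 and 0.170 CPM at passages 12, 5 and 8, and in ES 0.760, 0.632, 1.91 and 2.08 CPM. The order of the means was 5ar3, EpiSC_AF, ES, 5ar1 and EpiSC_AFX, and the libraries of the last 3 overlapped. In bulk RNA, fewer cells expressing a gene and less RNA per cell cannot be told apart, and this holds for every level given here.

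Pax6 read 1.26, 0.892 and 1.49 CPM in 5ar1 and 3.43, 5.12 and 4.24 CPM in 5ar3, where passage 12 is given first as for Sox1. These libraries did not overlap, with a mean of 1.21 ± 0.301 CPM in 5ar1 and 4.26 ± 0.848 CPM in 5ar3 (SD, n = 3 each). EpiSC_AF gave 1.35, 1.01 and 0.248 CPM, EpiSC_AFX 0.202, 0.464 and 0.136 CPM, and ES 0.207, 0.181, 0.0456 and 0.510 CPM. Below 5ar3, each line overlapped the next in the order 5ar1, EpiSC_AF, EpiSC_AFX and ES.

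Hes5 showed the smallest difference of the 6 between the FS lines. It read 0.815, 0.637 and 0.609 CPM in 5ar1 and 0.952, 3.13 and 1.93 CPM in 5ar3, so the lowest 5ar3 library was just above the highest 5ar1 library. EpiSC_AF spread from 0.0708 to 1.48 CPM and so covered both the 5ar1 level and part of the 5ar3 range. EpiSC_AFX read 0.371, 0.500 and 0.305 CPM. In ES there was 1 count in 1 of the 4 libraries and 0 in the others.

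The Six3 locus was highest in 5ar3, and every library of the other lines read lower. Six3 had 3, 4 and 5 counts in the 5ar1 libraries (0.111, 0.128 and 0.169 CPM), and 210, 216 and 195 counts in the 5ar3 libraries (7.99, 7.96 and 9.19 CPM). Six3os1 read 0.260, 0.287 and 0.508 CPM in 5ar1 and 18.9, 19.7 and 17.0 CPM in 5ar3. In 5ar3 both genes varied little between passages, with an SD of 0.699 CPM on a mean of 8.38 for Six3 and of 1.37 CPM on a mean of 18.5 for Six3os1. EpiSC_AF held 0.193, 1.01 and 0.248 CPM of Six3 and 0.579, 2.12 and 0.672 CPM of Six3os1, and in both cases passage 14 was the highest. In EpiSC_AFX the passage 12 library had 14 counts of Six3 and 36 of Six3os1, whereas passages 5 and 8 had 0 counts of Six3 and 2 and 0 of Six3os1. In ES no library had more than 1 count of Six3 or 2 of Six3os1.

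Greb1l, on chromosome 18, was high in EpiSCs as well. It read 1.45, 1.05 and 1.08 CPM in 5ar1, and 10.5, 81.7 and 61.3 CPM in 5ar3 at passages 12, 4 and 5. EpiSC_AF gave 28.8, 32.6 and 18.4 CPM, which lies between the lowest and the highest 5ar3 libraries. EpiSC_AFX gave 25.8 CPM at passage 12 but 2.46 and 3.02 CPM at passages 5 and 8. ES ranged from 0.760 to 1.19 CPM with a median of 1.07 and overlapped 5ar1.

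**Figure D1:**
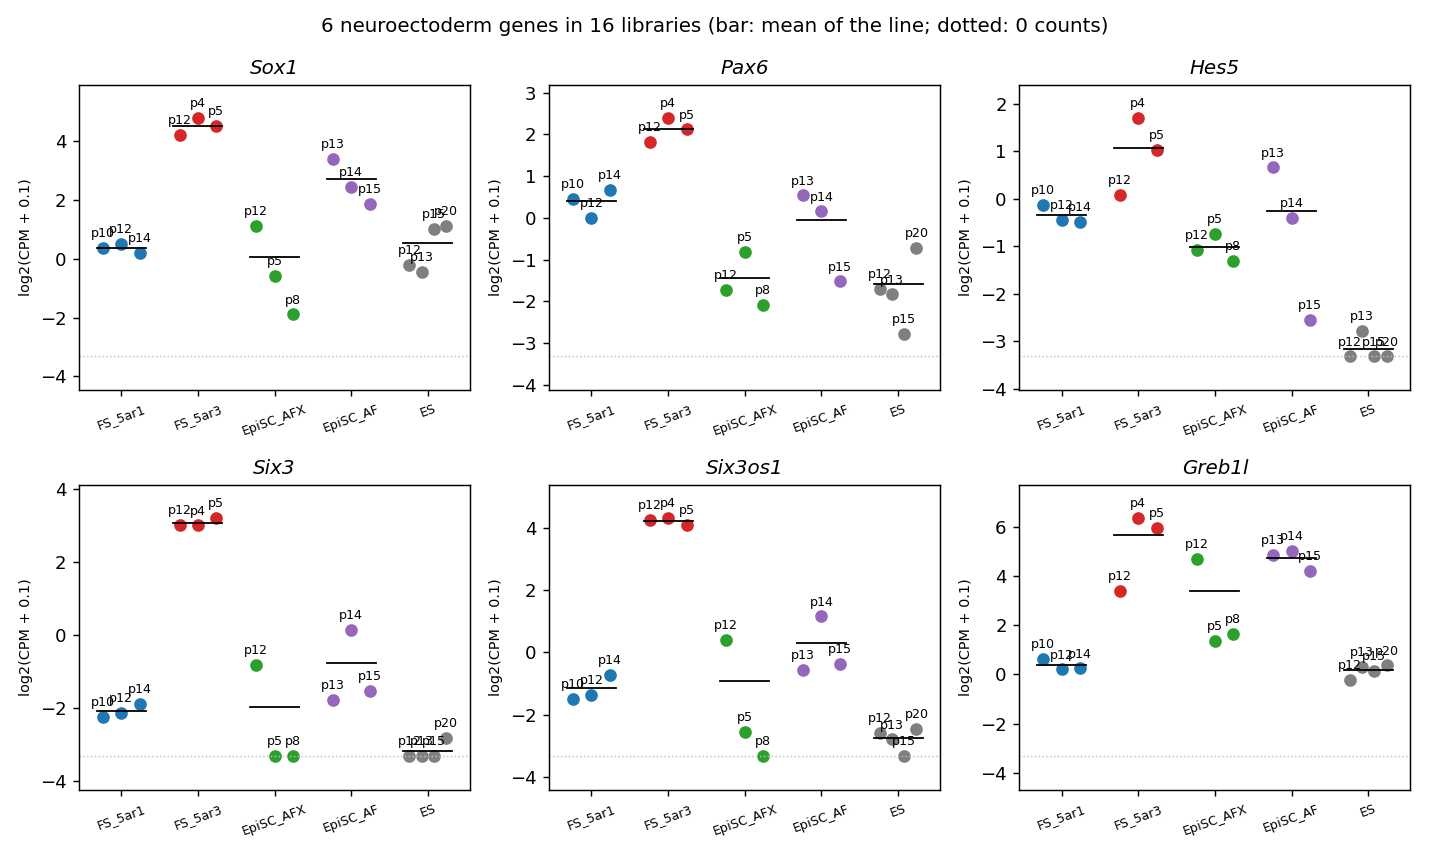
Each panel plots 1 gene as log2(CPM + 0.1) in the 16 libraries, grouped by line, with the passage beside each point, a bar at the mean CPM of the line and a dotted line at 0 counts. The 5ar3 points lie above all 5ar1 points in every panel, and the EpiSC_AFX library from passage 12 lies above the other 2 of its line for Sox1, Six3, Six3os1 and Greb1l.

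Levels of different genes were compared per kilobase of exon. In 5ar3, Sox1 averaged 4.74 ± 0.919 and Greb1l 4.64 ± 3.33 CPM per kb, Six3os1, Six3 and Hes5 averaged 1.56, 1.54 and 1.47 CPM per kb, and Pax6 averaged 0.365 CPM per kb (SD, n = 3). In 5ar1 the order was different: Hes5 was first with 0.504 ± 0.0820 CPM per kb and Sox1 second with 0.244 ± 0.0266, while Six3os1 and Six3 were last with 0.0296 and 0.0250 CPM per kb. Greb1l led in both EpiSC lines, with 2.41 ± 0.663 CPM per kb in EpiSC_AF and 0.947 ± 1.21 in EpiSC_AFX. In EpiSC_AFX this rested on the passage 12 library: over passages 5 and 8, Hes5 averaged 0.295 and Greb1l 0.249 CPM per kb. The per-kb order of the 6 genes therefore differed between the lines, as well as the total.

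The fitted log2 differences of 5ar1 minus 5ar3 varied in size. Six3 (-5.89, SE 0.85), Six3os1 (-5.70, SE 0.83), Greb1l (-5.42, SE 0.91) and Sox1 (-4.27, SE 0.63) were 61.6-fold, 52.7-fold, 42.9-fold and 19.4-fold higher in 5ar3 by their means. Pax6 (-1.81, SE 0.54) and Hes5 (-1.54, SE 0.64) were 3.51-fold and 2.92-fold higher. The 6 genes did not overlap between the lines, as was so for 10.4% of all tested genes in this direction. Because these values chose the genes, nothing is read from this count.

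The 2 FS lines were sampled at different passages and shared only passage 12. At that passage, with 1 library each, 5ar3 was 65.8-fold above 5ar1 for Six3os1, 62.7-fold for Six3, 14.1-fold for Sox1, 9.99-fold for Greb1l, 3.84-fold for Pax6 and 1.49-fold for Hes5. Within 5ar3 the mean of passages 4 and 5 was 6.81-fold the passage 12 value for Greb1l and 2.66-fold for Hes5, but 1.37-fold for Pax6, 1.36-fold for Sox1, 1.07-fold for Six3 and 0.971-fold for Six3os1. Greb1l and Hes5 thus had their low 5ar3 value in the passage 12 library, while the Six3 pair was level across all 3. With passage as a covariate in the fit, the difference of 5ar1 minus 5ar3 for Hes5 was -0.51 on the log2 scale in place of -1.54, and that for Six3os1 was -6.68 in place of -5.70.

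The FS lines were then set against the EpiSC lines. In 5ar3, 5 of the 6 genes were above EpiSC_AFX without overlap, a state shared by 14.1% of all tested genes, with Greb1l the exception, since at passage 12 it was higher in EpiSC_AFX than in 5ar3. The fitted differences ran from 2.29 (SE 0.77) for Greb1l to 5.67 (SE 0.83) for Six3. They depended on the EpiSC_AFX library from passage 12, without which Greb1l was at 4.23, Sox1 at 5.95, Six3os1 at 8.87 and Six3 at 10.78. The other EpiSC_AFX libraries hold 0 counts of Six3, so its last value is set by the fit and is no bound. Against EpiSC_AF, 4 of the 6 were above without overlap (17.5% of all tested genes), with differences of 4.09 (SE 0.74) for Six3, 4.03 (SE 0.74) for Six3os1, 2.28 (SE 0.55) for Pax6 and 1.82 (SE 0.55) for Sox1. Hes5 and Greb1l overlapped there. In 5ar1 no gene was above EpiSC_AF without overlap, and Sox1, Six3, Six3os1 and Greb1l were below it (18.9% of all tested genes), with Greb1l at -4.48 (SE 0.88) and Sox1 at -2.45 (SE 0.60). Against EpiSC_AFX, 5ar1 was higher without overlap for Pax6 (2.17, SE 0.62) and Hes5 (0.80, SE 0.69), and 12.1% of all tested genes were. It was lower for Greb1l (-3.13, SE 0.85), as were 10.6% of all tested genes. Greb1l in that comparison was -1.21 without the EpiSC_AFX library from passage 12. Against ES, the 6 genes were all higher in 5ar3 without overlap (30.8% of all tested genes), and Pax6, Hes5, Six3 and Six3os1 were higher in 5ar1 without overlap (28.6%). Six3 had 3 to 5 counts in the 5ar1 libraries and at most 1 in those of ES, so its difference there rests on very few counts. Sox1 and Greb1l in 5ar1 overlapped ES, with log2 differences of -0.21 (SE 0.59) and 0.20 (SE 0.88). These comparisons share libraries and are a description.

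**Figure D2:**
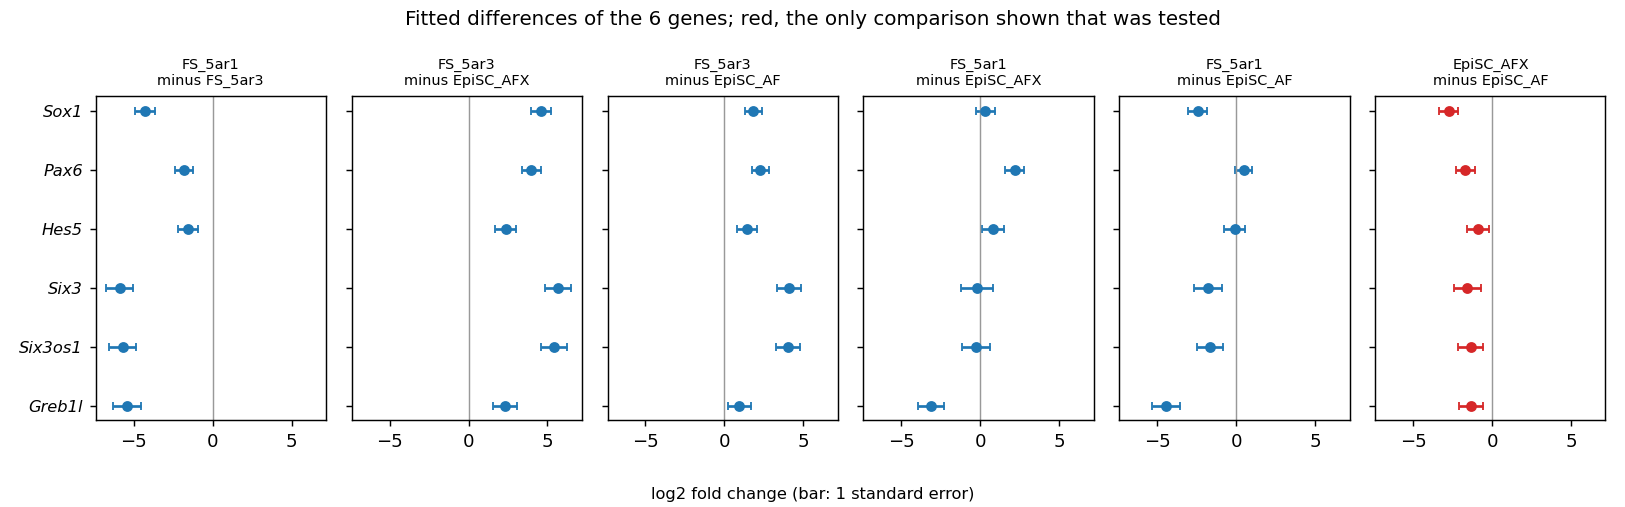
Points are fitted log2 fold changes of the 6 genes with bars of 1 standard error, 1 panel per comparison, in red for the comparison between the EpiSC lines. Six3 and Six3os1 lie together in every panel, at -5.89 and -5.70 in the first, and Greb1l lies lowest in both panels that set 5ar1 against an EpiSC line.

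The 2 EpiSC lines hold no FS library, so the difference between them could be tested. All EpiSC_AF libraries came from later passages than those of EpiSC_AFX, so passage cannot be told apart from line and medium there. Sox1 fell in EpiSC_AFX relative to EpiSC_AF, with means of 0.944 ± 1.01 against 6.46 ± 3.57 CPM (SD, n = 3 each), a 6.84-fold difference and no overlap. Its log2 fold change was -2.77 (SE 0.61) with an adjusted p of 0.0106 by edgeR's quasi-likelihood test with Benjamini-Hochberg adjustment over all 18555 genes. It was the 1 gene of the 6 to be called, against a background of 4.38% of all tested genes called lower and 2.24% called higher. The other 5 also had lower means in EpiSC_AFX and did not pass the same edgeR test, with adjusted p of 0.124 for Pax6, 0.339 for Six3, 0.351 for Greb1l, 0.366 for Six3os1 and 0.519 for Hes5. The median log2 fold change of the 6 was -1.48, against 0 for all tested genes.

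The call of Sox1 and the values of the other genes depended on single libraries. Without the EpiSC_AFX library from passage 12, 4 of the 6 genes were called lower by edgeR: Greb1l at -3.27 (adjusted p 0.00296), Six3 at -6.68 (adjusted p 0.00584), Six3os1 at -4.83 (adjusted p 0.00237) and Sox1 at -4.12 (adjusted p 1.38e-04). The share of all tested genes called lower in that fit is not reported here, so nothing is read from the count. The Six3 value is against 0 counts and is no bound. That library was 8.57-fold above the higher of the other 2 for Greb1l, 17.0-fold for Six3os1 and 3.66-fold for Sox1, but 0.436-fold for Pax6 and 0.742-fold for Hes5. Its summed level of 11 primitive streak and endoderm genes was also the highest of the line, at 190 CPM against 24.8 and 16.3 CPM, and it is the latest passage. The part of these in the result was not tested. The edgeR call of Sox1 was lost without the EpiSC_AF library from passage 13 (adjusted p 0.0569), without the EpiSC_AFX library from passage 5 (0.0662) and with passage as a covariate (0.0593). It was also lost when only the 2 lines entered the fit (0.0774) or when the test was against a log2 change of 1 (0.0914). Its log2 fold change in these fits lay between -2.77 and -2.23.

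ES cells gave a reference in which Hes5, Six3 and Six3os1 had at most 3 counts in every library, so folds against ES for those genes are lower bounds set at 3 counts per library. All 6 genes were higher in EpiSC_AF than in ES by the same edgeR test, as were 30.7% of all tested genes. Greb1l was 26.1-fold higher (log2 4.68, SE 0.81, adjusted p 1.61e-04) and Sox1 was 4.80-fold higher (log2 2.23, SE 0.55, adjusted p 0.00206). Six3os1 was at least 7.41-fold higher (adjusted p 0.00191), Hes5 at least 4.84-fold (adjusted p 3.15e-04) and Six3 at least 3.19-fold (adjusted p 0.00361). Pax6 was 3.69-fold higher (adjusted p 0.0153), but its libraries overlapped and edgeR did not call it without the EpiSC_AF library from passage 13 (adjusted p 0.0934) or against a log2 change of 1 (0.0992).

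EpiSC_AFX shares the ES libraries with that comparison and showed fewer calls, 3 of 6, beside a background of 29.4%. Greb1l was 10.2-fold higher than in ES (log2 3.33, SE 0.80, adjusted p 0.00237 by edgeR), but without the passage 12 library its log2 difference was 1.40 (adjusted p 0.0494). Hes5 was at least 2.58-fold higher (adjusted p 0.00278, edgeR). Six3os1 was called at a bound of 2.82-fold (adjusted p 0.0388), but this rested on the passage 12 library: without it the log2 fold change was -0.44 with an edgeR adjusted p of 0.810. That call was also lost without any 1 of the 4 ES libraries (edgeR adjusted p 0.0560 to 0.0939), with no low-count filter (0.117) and against a log2 change of 1 (0.111). Six3 had 14, 0 and 0 counts and was not called (adjusted p 0.0750, edgeR). Sox1 (log2 -0.53, adjusted p 0.467) and Pax6 (log2 0.14, adjusted p 0.876) were not called either by edgeR, and their libraries overlapped those of ES. Without the passage 12 library Sox1 was called lower than in ES by edgeR (log2 -1.89, adjusted p 0.0177).

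Genes of the same families were measured beside the members. Sox2, the SOXB1 factor that also serves pluripotency, ranged from 39.3 to 71.6 CPM in 5ar1, with a mean of 60.1, and averaged 95.2 ± 0.983 CPM in 5ar3 (SD, n = 3), a log2 difference of -0.66 that did not pass edgeR's test (adjusted p 0.116). Sox3, the third SOXB1 gene, averaged 9.48 ± 4.53 and 7.04 ± 1.28 CPM (adjusted p 0.544, edgeR). Both were thus present in 5ar1, where Sox1 averaged 1.18 CPM. Greb1, the paralogue of Greb1l, averaged 9.66 ± 1.95 CPM in 5ar1 and 14.4 ± 4.50 CPM in 5ar3 (adjusted p 0.406, edgeR) and was 0.193 ± 0.134 CPM in ES (n = 4). Of the genes related to Six3, Six4 and Six5 averaged 28.4 and 10.4 CPM in 5ar1 and 19.3 and 14.2 CPM in 5ar3, and edgeR called neither (adjusted p 0.130 and 0.340). Six6, an eye and forebrain gene like Six3, averaged 0.0783 CPM in 5ar1 and 1.21 CPM in 5ar3 (adjusted p 0.101, edgeR). Six2, the neighbour of Six3 in the genome, averaged 0.167 CPM or less in both FS lines.

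Other neural genes were taken from 3 lists with no member in them, chosen with earlier results of these data known. Of 48 genes, 39 were tested. Between the FS lines 16 were lower and 0 higher in 5ar1, beside 2.02% lower and 1.86% higher among all tested genes. The median log2 fold change of the 39 was -1.11, against -0.01 for all tested genes. This count and median include genes that passed the low-count filter only through the FS libraries, where they were high in 5ar3. Among the 33 neural genes that passed on the EpiSC and ES libraries alone, 10 were lower, beside 1.91% of all genes passing there, and the median was -0.82. Among genes of the anterior neural plate and forebrain, 6 of 10 tested were lower in 5ar1: Hesx1, Rax, Lhx2, Lhx5, Fezf1 and Fezf2, all transcription factors of the prospective forebrain and eye. All of these but Hesx1 passed the low-count filter through the FS libraries, where they were high in 5ar3, and so could hardly have been called in the other direction. Hesx1 averaged 0.505 ± 0.170 CPM in 5ar1 and 9.36 ± 6.67 CPM in 5ar3 (log2 -4.19, adjusted p 0.0267, edgeR). In EpiSC_AF and ES it averaged 5.11 and 3.175 CPM. Fezf2 averaged 0.0681 and 3.95 CPM, and Fezf1 had 0 counts in 5ar1 against 3.58 CPM in 5ar3, at least 34.9-fold higher. Otx2, which the formative and primed epiblast also express, averaged 158 ± 23.6 and 193 ± 20.6 CPM and was not called (adjusted p 0.592, edgeR). Sp8 was not called either (log2 -1.11, adjusted p 0.143, edgeR).

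Of the 16 general neural progenitor genes, all tested, 6 were lower in 5ar1 and none higher: Sox21, Pou3f3, Cdh2, Ncam1, Msi1 and Zic1. Cdh2, the neural cadherin, averaged 21.6 ± 1.41 CPM in 5ar1 and 62.1 ± 2.42 CPM in 5ar3 (log2 -1.52, SE 0.30, adjusted p 0.00877, edgeR). Ncam1, another neural adhesion molecule, averaged 27.7 and 91.1 CPM (log2 -1.72, adjusted p 0.00591, edgeR). Sox21 averaged 0.127 and 1.70 CPM (adjusted p 0.0258, edgeR), but 4.68 CPM in EpiSC_AF and 6.89 CPM in ES. Fabp7, a radial glia gene, read 0.913 and 1.91 CPM and was not called (adjusted p 0.298, edgeR). Of the midbrain, hindbrain and spinal cord genes, 4 of 13 tested were lower in 5ar1 and none higher: En1, Wnt1, Irx3 and Nkx6-1. Irx3, which marks the neural plate behind the Six3 domain, averaged 0.190 CPM in 5ar1 and 5.35 ± 2.98 CPM in 5ar3 (log2 -4.81, SE 0.88, adjusted p 0.00473, edgeR). En1 and Wnt1 averaged at most 0.413 CPM in 5ar3. Wnt1 had 0 counts in 5ar1 and passed the low-count filter only with the FS libraries, so it could hardly have been called higher in 5ar1. When the filter was applied only to the 10 EpiSC and ES libraries, an alternative chosen after seeing the data, 33 neural genes passed, of which 10 were lower and 0 higher in 5ar1, against 1.91% of all genes passing there that were lower. The count of 16 was 9 without the 5ar1 library from passage 12, and 10 without that from passage 14 or without either the passage 4 or the passage 5 library of 5ar3. No neural gene was called higher in 5ar1 in any of these fits. The median log2 fold change of the 39 neural genes was -0.09 for 5ar3 minus EpiSC_AF and 1.14 for 5ar3 minus EpiSC_AFX. For 5ar1 minus EpiSC_AFX it was -0.08. All tested genes had medians of 0.02, 0.02 and 0.03. In EpiSC_AF, Cdh2 and Irx3 averaged 88.7 and 7.33 CPM, above 5ar3, and Ncam1 averaged 33.1 CPM, below it.

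Markers of other cell types were measured beside these. Of 10 tested neuron genes, 2 were lower in 5ar1 and none was higher. Neurog2, which starts neuron formation, was among the lower ones, while Dcx, Elavl4, Map2 and Tubb3 were not called. Neurog2 had at most 2 counts in the 5ar1 libraries and 9 in those of EpiSC_AF, against 11 to 36 in 5ar3. It passed the low-count filter through 5ar3 and could hardly have been called higher in 5ar1. The summed neuron list ranged from 206 to 299 CPM in 5ar3 and from 192 to 200 CPM in 5ar1, so the lines lay close at their nearest libraries. Among 6 tested neural crest genes Sox9 was lower in 5ar1 (log2 -2.31, adjusted p 0.00315, edgeR). Among 10 tested primitive streak and endoderm genes Foxa2 was lower (log2 -4.34, adjusted p 0.0370, edgeR). Cer1 (-4.43, SE 1.98), Lhx1 (-3.145, SE 1.61) and Gsc (-2.37, SE 1.12) were not called. The median log2 fold change was -2.255 for the streak and endoderm list and -1.542 for neural crest, against -1.108 for the neural genes. Medians of the neuron, fibroblast and epithelial lists were -0.546, -0.68 and 0.592. Of the surface ectoderm and epithelial list, 5 of 10 tested genes were higher in 5ar1 and 0 lower: Krt8, Krt18, Epcam, Sfn and Grhl2. Tfap2a, Gata3 and Krt19 of that list were not called. Tfap2a and Gata3 averaged 0.13 and 0.06 CPM in 5ar1 and 0.21 and 0.16 CPM in 5ar3. Grhl2, a regulator of epithelial junctions, averaged 44.4 ± 5.70 CPM in 5ar1 and 6.39 ± 0.862 CPM in 5ar3 (log2 2.80, SE 0.27, adjusted p 1.43e-05, edgeR). The summed epithelial list ranged from 429 to 606 CPM in 5ar1 and from 161 to 299 CPM in 5ar3. Pou5f1 was higher in 5ar1 as well, at 989 ± 265 against 455 ± 103 CPM (log2 1.12, adjusted p 0.00262, edgeR). Of 7 tested fibroblast genes 1, Dcn, was higher in 5ar1 and 0 were lower. The part of these in the levels of the 6 genes was not tested.

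The Notch pathway, which acts upstream of Hes5, was listed apart. Of 17 tested genes none was lower in 5ar1 and 2 were higher, the targets Hey1 (log2 0.94, SE 0.21, adjusted p 0.0194, edgeR) and Hey2 (log2 1.64, SE 0.41, adjusted p 0.0310, edgeR). The ligand Dll1 averaged 9.23 ± 3.45 CPM in 5ar1 and 16.7 ± 2.83 CPM in 5ar3 (adjusted p 0.489, edgeR). The glycosyltransferases Lfng and Mfng, which modify the receptors, averaged 11.7 and 3.82 CPM in 5ar1 and 18.5 and 7.52 CPM in 5ar3, and edgeR called neither (adjusted p 0.125 and 0.157). The target Hes1 averaged 19.6 and 27.6 CPM (adjusted p 0.327, edgeR). Hey1 and Hey2 thus had their higher level in the line in which Hes5 was lower.

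Between the EpiSC lines the 39 tested neural genes were counted in the same way. Of the 39 tested neural genes 16 were lower in EpiSC_AFX than in EpiSC_AF and 0 higher, beside 4.38% lower and 2.24% higher among all tested genes. The median log2 fold change of the 39 was -2.22, against 0 for all tested genes. The neural progenitor list gave 8 of 16, among them Cdh2 (log2 -1.74, adjusted p 0.00210, edgeR) and Fabp7 (log2 -3.20, adjusted p 0.00163, edgeR). The anterior list gave 3 of 10, namely Fezf1, Dmrta2 and Sp8, and the midbrain, hindbrain and spinal cord list gave 5 of 13, namely En1, En2, Pax3, Pax5 and Pax7. The primitive streak and endoderm list moved in the same direction, with T, Eomes, Mixl1, Foxa2 and Lhx1 lower among 10 tested. Its median log2 fold change was -3.08, larger in size than that of the neural genes. Its summed level was 402 to 1027 CPM in EpiSC_AF against 16.3 to 190 CPM in EpiSC_AFX. Of 7 tested fibroblast genes 3 were lower and 1 higher in EpiSC_AFX, and their summed level was 42.8 to 87.1 CPM in EpiSC_AF against 19.2 to 28.2 CPM in EpiSC_AFX. The neuron and neural crest lists each had 1 gene lower and 0 higher, and the epithelial list had no call. The part of these in the neural count was not tested. When the filter was applied only to the FS and ES libraries, 34 neural genes passed, of which 12 were lower and 0 higher in EpiSC_AFX. Among all genes passing there, 4.15% were lower. The others of the 16, Olig3, En1, Pax3 and Pax7, passed the low-count filter only with the EpiSC libraries, where they were higher in EpiSC_AF. They could hardly have been called higher in EpiSC_AFX. The count of 16 was also 16 without the EpiSC_AFX library from passage 12. It was 8 without that from passage 5, 7 without that from passage 8, 9 without the EpiSC_AF library from passage 13 and 6 without that from passage 14. With passage as a covariate it was also 6.

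**Figure D3:**
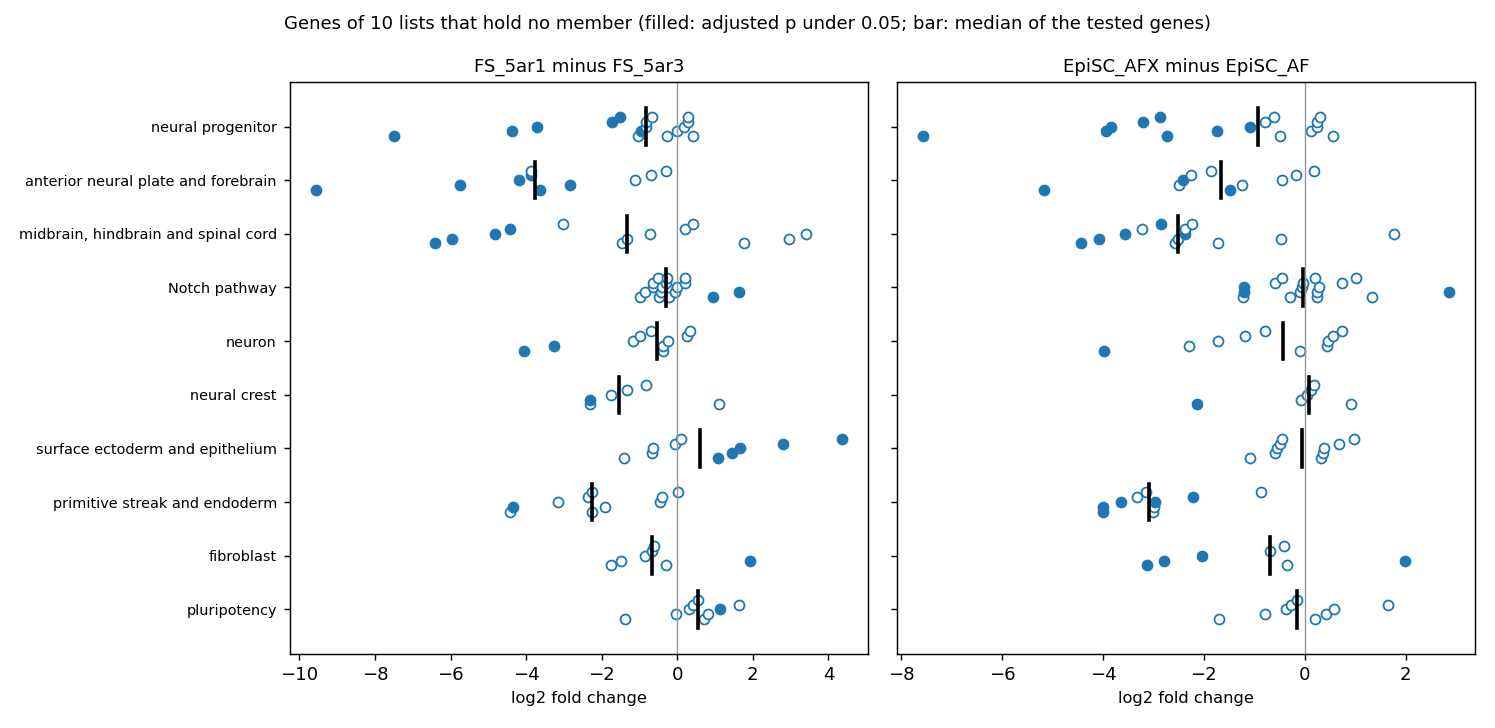
Each point is a gene of 1 of 10 lists, placed by its log2 fold change between the FS lines (left) or the EpiSC lines (right), filled where edgeR's adjusted p was under 0.05, with a bar at the median of the tested genes of the list. The 3 neural lists have filled points on the negative side only in both panels, and the epithelial list has 5 filled points, all positive, in the left panel.

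Genes within 100 kb of a member and past the low-count filter were compared between the FS lines. Sox1ot, a noncoding transcript whose gene spans Sox1 on the same strand without a shared exon, averaged 0.709 ± 0.152 CPM in 5ar1 and 3.35 ± 0.935 CPM in 5ar3 (log2 -2.23, SE 0.51, adjusted p 0.0214, edgeR). Elp4, whose gene ends beside Pax6, averaged 27.3 and 28.8 CPM (adjusted p 0.835, edgeR). Near Hes5, Pank4 at 1752 bases from it averaged 40.3 and 41.2 CPM (adjusted p 0.953, edgeR), and Ttc34, Mmel1 and Fam213b were not called. Plch2, 20744 bases from Hes5, was higher in 5ar1, at 2.85 ± 0.489 against 0.460 ± 0.113 CPM (log2 2.61, SE 0.48, adjusted p 0.00514, edgeR). Around Greb1l the 4 tested genes Nutf2-ps2, Esco1, Snrpd1 and Abhd3 had log2 differences of 0.05 to 0.79 and were not called. At the Six3 locus no other neighbour passed the filter, but several small annotated transcripts inside or antisense to it had counts in 5ar3, such as Gm27283 at 0.420 CPM and Gm28528 at 0.326 CPM, both with 0 in 5ar1. These overlap Six3 or Six3os1, so their reads cannot be told apart from those genes with certainty.

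**Figure D4:**
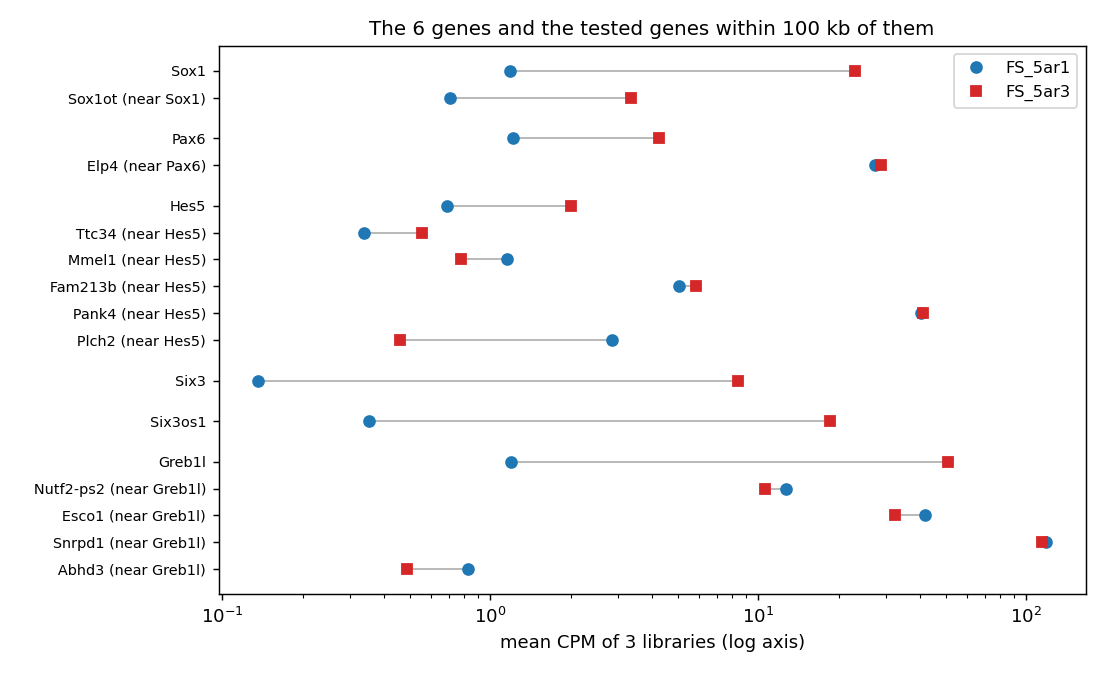
Mean CPM of the 3 libraries of 5ar1 (circles) and 5ar3 (squares) on a log axis, for each member and the tested genes within 100 kb of it. Among the neighbours, Sox1ot lies to the right in 5ar3 as Sox1 does, and Plch2 lies to the right in 5ar1.

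The profiles of the 6 genes were set beside each other over the 16 libraries. The genes were chosen for a difference that shapes these profiles, so the values carry no support for a likeness. Each member's Pearson correlation with the mean standardized profile of the 6, which contains it, was 0.970 for Six3os1, 0.961 for Six3, 0.905 for Sox1, 0.883 for Pax6, 0.842 for Greb1l and 0.834 for Hes5. Among 14800 other genes with a mean of at least 1 CPM, the 8 closest to that mean profile included Lmx1b (0.936), Fgfr2 (0.930), Tmem67 (0.928), Fam107a (0.928), Rbm24 (0.920), Plppr3 (0.919) and Dlk1 (0.918). These correlations run over libraries that share 5 lines and are given as a description without a p. Lmx1b, a LIM homeobox gene of the midbrain, averaged 1.91 ± 1.06 CPM in 5ar1 and 10.6 CPM in 5ar3. Fgfr2, an FGF receptor, averaged 10.8 ± 4.40 and 72.6 ± 41.2 CPM, and the Notch-like ligand Dlk1 averaged 0.593 ± 0.137 and 7.40 ± 1.72 CPM. Tmem67, a protein of the primary cilium, had a narrow range, with means of 8.94 CPM in 5ar1, 13.6 CPM in 5ar3 and 6.24 CPM in ES.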

How the data were processed

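Bulk RNA sequencing of 5 mouse cell lines gave 16 libraries. Per the labels' protocols, total RNA came from Trizol lysates and the library kit was a directional one. The authors deposited whole-number read counts per gene, not normalized. The submitters' processing notes name Trim Galore, TopHat2 2.1.0, featureCounts 1.5.0 and the build mm10, without roles. The annotation release and the strand setting are not given in the sources used here. The table had 34042 rows, 2003 of them 0 in all 16 libraries, and 6 columns that matched no sample were not used. The mitochondrial gene mt-Rnr2 took 9.96% to 38.1% of counts, with the highest share in the ES library from passage 12. That library stood apart from the other ES libraries, with a chi-square per degree of freedom of 246 to 289. Among the others it was 9.13 to 18.0. Libraries of a line differed beyond sampling noise, so none was merged.

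Counts were fitted with edgeR 4.0.16 (R 4.3.3): filterByExpr by line, TMM, 1 mean for each line over all 16 libraries, the robust quasi-likelihood test, and Benjamini-Hochberg adjustment over 18555 genes at 0.05. Members' differences involving FS libraries were not tested, since the members were chosen on them. The members and gene lists were chosen with earlier results of these data known. Named genes were the members, up to 4 genes per list with the largest FS difference among those with a mean of at least 5 CPM in a line, genes within 100 kb, the 8 nearest profiles (log2 CPM, prior count 2) and named family genes. Other genes called in a list were named after their values were seen. A few genes that this rule names are not reported here. A gene whose libraries of a line all held 3 counts or fewer was at the floor, and floors cover counting error only. Positions and exon lengths came from GENCODE release 21, where 33860 of the identifiers were found, and promoters from RefSeq. Alternatives were DESeq2 1.42.0, DESeq2 size factors, total counts, other filters, a test against a log2 change of 1, passage as a covariate, only the lines compared, no mitochondrial rRNA and leaving out each library. The procedure was tested on simulated data.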

Additional observations from a re-analysis of the deposited data

Results flagged for a closer look

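In the 4 ES libraries, a single library stood apart from the others for 2 of the 6 genes, by the ratio of its gap to the range of the group. Hes5 was 0.0452 CPM in ES replicate 2, which is 1 count, and 0 in the other 3 libraries. Six3 was 0.0425 CPM in ES replicate 4, which is 1 count, and 0 in the other 3. Both genes were at the floor of 3 counts in ES, so no difference between ES libraries was detectable at this depth. The ratio flags about 1 in 20 groups by chance, but a lone count among zeros is always flagged, so these flags carry no weight.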

How the results depend on the processing

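Each value was recomputed under the alternatives. The count of members called lower in EpiSC_AFX than in EpiSC_AF was 1 and became 0 when tested against a log2 change of 1, with passage as a covariate or with only the lines compared, and it ranged from 0 to 4 when 1 library was left out. The count called higher in EpiSC_AFX than in ES was 3, was 1 with only the lines compared, and ranged from 2 to 4. For EpiSC_AF against ES it was 6 and ranged from 5 to 6. The Six3os1 difference of EpiSC_AFX from ES reversed to -0.44 without EpiSC_AFX replicate 1, the library from passage 12, and ranged up to 3.61 without another library. Over all genes, the count called between the FS lines was 720. It was 1292 with the DESeq2 Wald test, 128 against a log2 change of 1, 431 with passage and 375 with only the lines compared, and ranged from 286 to 1549 when 1 library was left out. Between the EpiSC lines 1227 genes were called, 1918 with DESeq2, 197 against a log2 change of 1, 601 with passage and 2276 with only the lines compared, and the range was 580 to 1489. The 16 other neural genes lower in 5ar1 were 7 with a mean of at least 1 CPM and 7 against a log2 change of 1, and ranged from 9 to 17. With the filter on the libraries outside the comparison, added after seeing the data, they were 10. For the EpiSC lines, a count added after seeing the data, the 16 were 7, 5 and, with passage, 6, and ranged from 6 to 16. The causes were not tested, beyond the fewer genes or libraries that some alternatives hold.

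Scaled by total counts only, 55.6% of calls between the FS lines were higher in 5ar1 (278 against 222), against 47.9% with TMM. That scaling moved the median of all genes by up to 0.39 against ES. With a mean of at least 1 CPM required, Hes5 was not tested. No paired analysis was possible because the replicate numbers follow accession order and the labels give only passages. Of the members' differences with FS libraries, 577 of the recomputed values moved by less than the SD between libraries of a line and 53 by more. Of these values, 8 had the other sign, in 5 differences of 5ar1 from EpiSC or ES cells that were near 0: without the EpiSC_AFX library from passage 12, Six3 went from -0.22 to 4.88 and Six3os1 from -0.29 to 3.16, and without the EpiSC_AF library from passage 13, Hes5 went from -0.11 to 0.90 (0.04 with total counts). Sox1 differed in sign from its value in 1 setting against EpiSC_AFX and 3 against ES. Depth limits the values at 3 counts or fewer, such as Hes5, Six3 and Six3os1 in ES and the Six3 pair in EpiSC_AFX at passages 5 and 8.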
